A study of Mus musculus with 6 samples.

Results

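Toll-like receptors are membrane proteins with which macrophages recognise molecules of microbes and of damaged cells. All 10 receptor genes named Tlr1 to Tlr9 and Tlr13 were taken by their symbol in the array's annotation, which gave 16 of the 45037 probe sets tested and 10 of the 18193 genes. They were compared between cultures from E-FABP knockout and wild-type mice, both labelled C57BL/6 and aged 6 to 8 weeks. E-FABP is the epidermal fatty-acid-binding protein, a cytosolic lipid carrier encoded by Fabp5. Each genotype had 3 arrays, named as biological replicates. Whether a replicate stands for an animal is not stated, and p-values measure only the spread between these samples. In all 6 samples bone marrow had been cultured with GM-CSF (20 ng/ml, 7 days), and the attached cells had then spent 18 h beside E0771 cells, a mouse breast tumour line kept in an insert. Every sample had met tumour cells, so the data compare genotypes after that exposure and not exposure itself. The sources used here do not say which part of Fabp5 was deleted.

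Values are log2 intensities, on which a difference of 1 is a doubling. Fabp5 read 8.13, 8.31 and 8.39 in the knockout replicates and 14.47, 14.41 and 14.45 in wild type, a difference of -6.17 (SE 0.08, limma adjusted p = 1.96e-09). The macrophage markers Lyz2, Csf1r, Cd68 and Adgre1 had means from 11.51 to 14.85 in both genotypes, against a median of 5.63 over all values on the arrays. Other measured macrophage markers differed between knockout and wild type by 0.04 (Itgam), -0.46 (Mertk) and -1.13 (Fcgr1). RNA came from whole cultures, in which fewer cells of a type and less RNA per cell cannot be told apart. A gene was called lower or higher at a limma adjusted p under 0.05, adjusted over all probe sets.

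The receptors fall into a surface and an endosomal class. TLR1, TLR2, TLR4, TLR5 and TLR6 sit mainly at the cell surface and bind lipoproteins, lipopolysaccharide or flagellin. TLR3, TLR7, TLR8, TLR9 and TLR13 sense nucleic acids inside endosomes, which they reach with the transport protein UNC93B1. TLR3 binds double-stranded RNA and signals through the adaptor TRIF (Ticam1) to interferon regulatory factors, while the others use MyD88, and TLR4 uses both.

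Tlr3 and Tlr8, both endosomal, were the receptors that passed the test, and both fell in the knockout cultures. Promoter sequence is shown for these 2 genes and, beside them, for the surface receptor Tlr6, which did not pass and whose window held the most motif matches of the receptors. The windows run from 250 bases before to 50 after a transcript start in RefSeq (GRCm38.p6), on the minus strand for all 3 genes: Tlr3 at chr8:45410331-45410630, Tlr8 at chrX:167264280-167264579 and Tlr6 at chr5:64959117-64959416. Capitals mark every match, on either strand, to an interferon regulatory factor core (AANNGAAA), a tandem interferon response motif (GAAANNGAA, which can overlap the core) or an NF-kB core (GGANTTTCC).
Tlr3: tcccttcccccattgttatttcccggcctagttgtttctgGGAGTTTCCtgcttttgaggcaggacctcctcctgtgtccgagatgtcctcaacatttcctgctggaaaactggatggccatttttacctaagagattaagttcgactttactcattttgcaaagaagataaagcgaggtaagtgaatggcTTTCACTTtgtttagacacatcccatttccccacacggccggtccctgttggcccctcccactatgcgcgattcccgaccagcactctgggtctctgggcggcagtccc
Tlr8: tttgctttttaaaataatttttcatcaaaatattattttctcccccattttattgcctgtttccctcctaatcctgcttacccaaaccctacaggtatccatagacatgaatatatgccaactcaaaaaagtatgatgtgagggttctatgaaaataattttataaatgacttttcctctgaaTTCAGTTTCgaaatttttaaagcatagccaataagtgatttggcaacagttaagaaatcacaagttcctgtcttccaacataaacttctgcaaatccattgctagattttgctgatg
Tlr6: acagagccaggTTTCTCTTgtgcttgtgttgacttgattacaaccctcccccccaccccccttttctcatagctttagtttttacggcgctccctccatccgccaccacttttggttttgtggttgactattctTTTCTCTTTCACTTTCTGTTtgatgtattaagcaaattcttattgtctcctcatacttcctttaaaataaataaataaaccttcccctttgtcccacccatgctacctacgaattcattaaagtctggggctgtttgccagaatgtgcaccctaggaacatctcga
The Tlr3 window held 1 NF-kB core match at bases 41 to 49, a motif found in 1.25% of all 32851 windows. It also held 1 interferon regulatory factor core match at bases 192 to 199, found in 23.9% of windows, and no tandem match. The Tlr8 window held 1 tandem match at bases 184 to 192, which 8.56% of windows have. The Tlr6 window held 4 interferon regulatory factor cores and 2 tandem matches, at bases 136 to 144 and 142 to 150, and another Tlr6 window held no match to any of the 3 motifs. Of the 8 receptor genes with a window (all but Tlr4 and Tlr7), Tlr1, Tlr2, Tlr3 and Tlr6 had an interferon regulatory factor core, Tlr6 and Tlr8 a tandem motif and Tlr3 alone an NF-kB core. The windows of Tlr5, Tlr9 and Tlr13 held no match to these letters. The motifs were chosen after the values were seen, and a match is a run of letters, not a shown binding site.

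Tlr3, the double-stranded RNA receptor, fell 3.47-fold. Its brighter probe set read 7.75, 7.04 and 8.46 in knockout replicates 1, 2 and 3, and 9.32, 10.002 and 9.31 in wild type. Every knockout value lay below every wild-type value, and knockout replicate 2 and wild-type replicate 2 were the extremes. The means were 7.75 ± 0.71 and 9.54 ± 0.40 (SD, n = 3 each), a difference of -1.79 (SE 0.32, 95% confidence interval -2.51 to -1.08, limma adjusted p = 0.0244). The other probe set of Tlr3 ran the same way. It read 6.19, 5.95 and 7.05 in knockout and 7.88, 8.62 and 7.61 in wild type, a difference of -1.64 (SE 0.30, limma adjusted p = 0.027). Tlr3 kept its direction when any array was left out, with differences of -2.15 to -1.44, but its limma adjusted p rose to 0.0886 (minus knockout replicate 1), 0.0516 (minus knockout replicate 2), 0.0553 (minus wild-type replicate 1) and 0.0972 (minus wild-type replicate 2). With eBayes trend and robust settings it was 0.11.

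**Figure D1:**
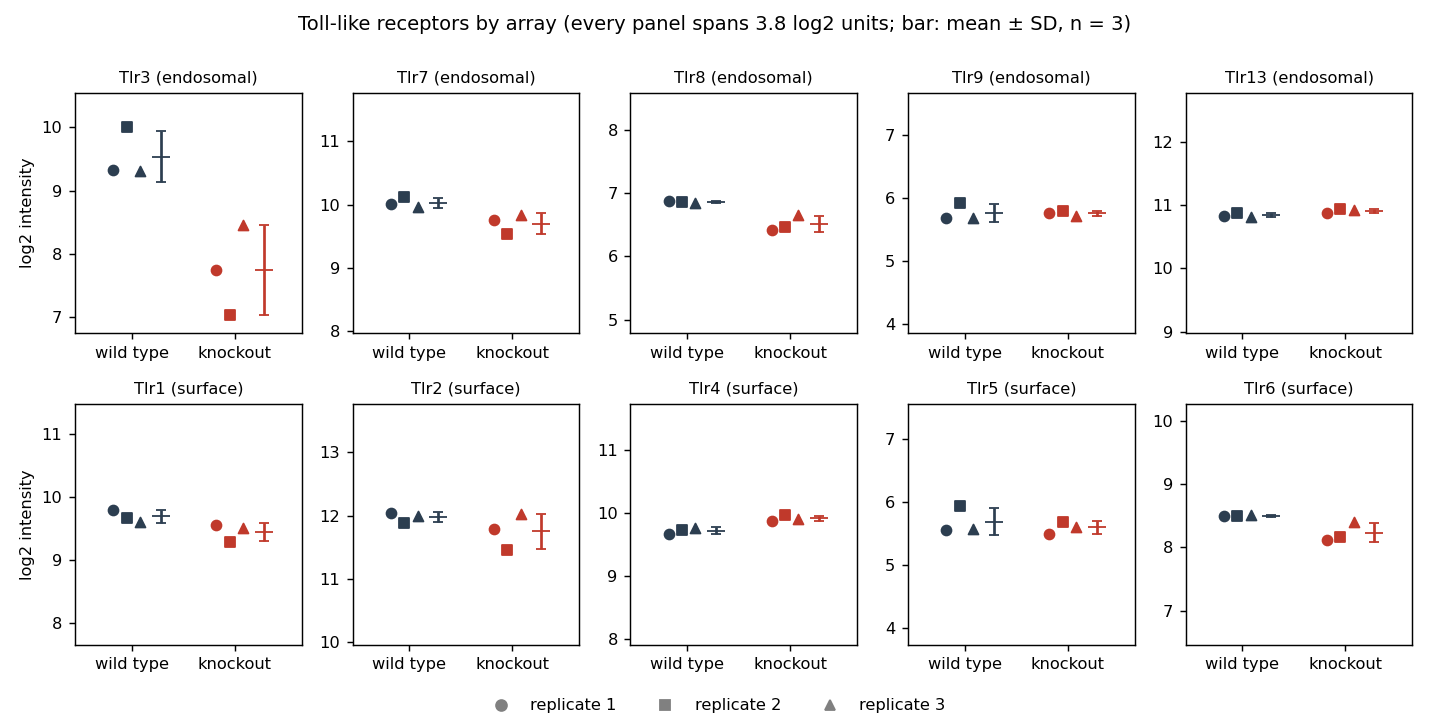
Log2 intensity (vertical axis) of the 10 receptors on the 6 arrays, with marker shapes for the replicate number and bars for the mean ± SD of 3 arrays per genotype. Every panel spans the same range, so the drop of Tlr3 from 9.54 to 7.75 can be set beside the small shifts of the others; intensities of different panels are not comparable.

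Tlr8 and Tlr7, neighbouring genes on chromosome X and both of the endosomal class, had differences of similar size. Tlr8 read 6.42, 6.47 and 6.66 in knockout and 6.88, 6.86 and 6.84 in wild type. The genotypes did not overlap, and knockout replicate 3 was the nearest to wild type. Tlr8 fell by 0.35 (SE 0.08, 95% confidence interval -0.52 to -0.17, limma adjusted p = 0.0461), or 1.27-fold. This call was lost when any array other than knockout replicate 3 was left out, with limma adjusted p of 0.0927 to 0.141, and was 0.0563 after median centring. Tlr7 did not pass, at 9.75, 9.53 and 9.83 in knockout against 10.01, 10.12 and 9.96 in wild type. Its difference was -0.32 (SE 0.09, limma adjusted p = 0.085; 0.0301 with trend and robust settings). The other 2 probe sets of Tlr7 lay at -0.40 and -0.41, with limma adjusted p of 0.107 and 0.119. In each of the 3 probe sets all knockout values lay below all wild-type values.

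Tlr9 and Tlr13, the other endosomal receptors, showed no detectable difference. Tlr9, the receptor for unmethylated CpG DNA, read 5.76, 5.80 and 5.71 in knockout and 5.68, 5.92 and 5.68 in wild type, close to the median of all values. The confidence interval of its difference ran from -0.19 to 0.19 (limma adjusted p = 0.998). Tlr13, which recognises bacterial ribosomal RNA, read 10.87, 10.94 and 10.92 in knockout and 10.83, 10.88 and 10.82 in wild type. Its spread was the smallest of the 10 receptors' (SD 0.05 over the 6 arrays). Its difference of 0.07 had an interval of -0.08 to 0.21 (limma adjusted p = 0.61).

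No surface receptor passed limma's threshold (0 of 5). At an unadjusted p under 0.05 there were 2 lower and 1 higher, where 8.15% of all genes were lower and 15.2% higher. The lower ones were Tlr1 and Tlr6, whose proteins pair with TLR2 to bind lipoproteins, and the higher one was Tlr4. Tlr2 read 11.78, 11.46 and 12.02 in knockout and 12.04, 11.88 and 12.00 in wild type. The genotypes overlapped, with knockout replicate 2 lowest. The difference was -0.22 (SE 0.13, limma adjusted p = 0.386), and -0.07 without knockout replicate 2. Tlr1 read 9.55, 9.28 and 9.50 against 9.80, 9.66 and 9.61, a difference of -0.24 (SE 0.09, limma adjusted p = 0.17). Tlr6, the neighbour of Tlr1 on chromosome 5, read 8.12, 8.17 and 8.40 against 8.50, 8.49 and 8.52. Its difference was -0.27 (SE 0.08, limma adjusted p = 0.108; 0.042 without knockout replicate 3). For Tlr1 and Tlr6 the genotypes did not overlap.

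Tlr4, the lipopolysaccharide receptor, lay the other way from its class. Its brightest probe set read 9.88, 9.97 and 9.91 in knockout and 9.66, 9.73 and 9.77 in wild type, a difference of 0.20 (SE 0.07, limma adjusted p = 0.133). The next brightest read 9.37, 9.47 and 9.48 against 9.23, 9.10 and 9.23, a difference of 0.25 (SE 0.07, limma adjusted p = 0.0873). In both probe sets all knockout values lay above all wild-type values, yet neither passed. The other 2 probe sets of Tlr4 overlapped between genotypes, at 0.10 and -0.13, and the last lay near the bottom of the scale with a mean of 3.56. Tlr5, the flagellin receptor, read 5.49, 5.68 and 5.61 in knockout and 5.55, 5.94 and 5.57 in wild type, close to the median of all values. Its genotypes overlapped and its difference of -0.09 had an interval of -0.34 to 0.16 (limma adjusted p = 0.706).

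**Figure D2:**
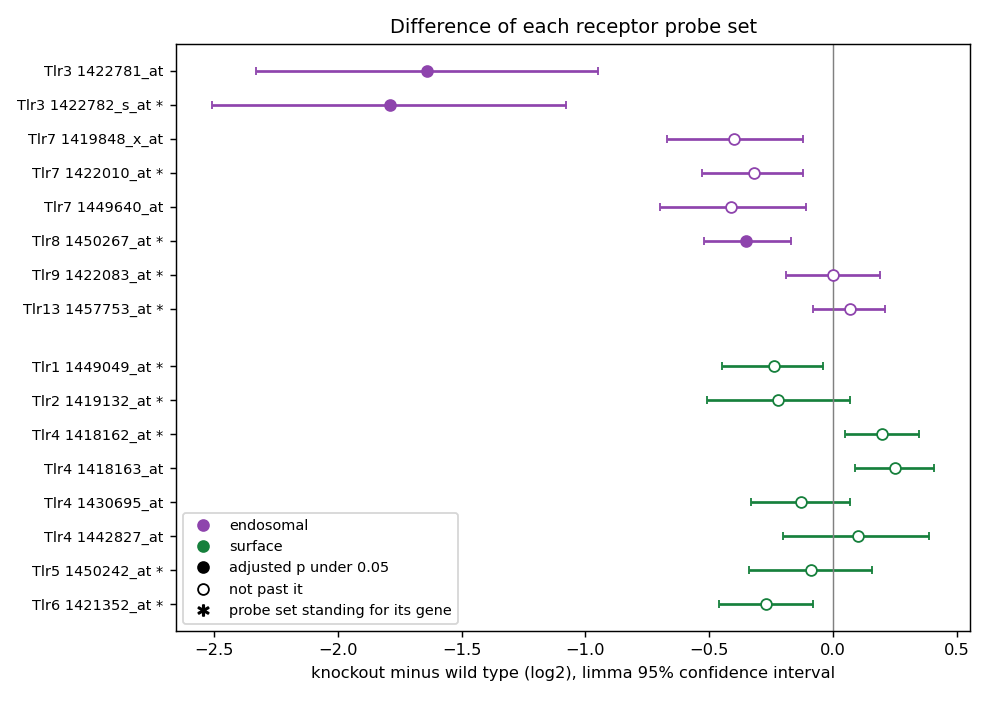
Difference in log2 intensity, knockout less wild type (horizontal axis), for each of the 16 receptor probe sets, with limma's 95% confidence interval over 3 arrays per genotype. Filled points passed an adjusted p of 0.05: both Tlr3 probe sets (-1.64 and -1.79) and Tlr8 (-0.35), while the brighter Tlr4 probe sets (0.20 and 0.25) lie right of 0.

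Set beside each other, 2 of 5 endosomal and 0 of 5 surface receptors fell, and none rose. Over all 18193 genes 4.9% were called, 2.05% lower and 2.85% higher. Of the receptors' 16 probe sets 3 were called, against 3.75% of all probe sets. The median difference was -0.32 for the endosomal class and -0.22 for the surface class, against 0.01 over all genes. The ranges overlapped, from -1.79 to 0.07 in the endosomal class and from -0.27 to 0.20 in the surface class. Without Tlr3 the median of the 4 remaining endosomal receptors was -0.16. In 5 of 10 receptors, 3 endosomal and 2 surface, all knockout values lay below wild type, where 11.2% of all genes did so. In Tlr4 all lay above, where 20.7% of all genes did so. For pairs of receptors, the value of one less the other was taken on each array and compared between genotypes. Tlr3 less each of the other 9 receptors was lower in knockout, by 1.45 (Tlr8) to 1.99 (Tlr4). The genotypes overlapped in none of the 9 pairs, which all share Tlr3 and so are not separate results. Tlr4 less Tlr1, Tlr2, Tlr5 and Tlr6 was higher in knockout by 0.44, 0.42, 0.29 and 0.47, again without overlap. These pairs all share Tlr4. Tlr7 and Tlr8 less Tlr13 differed between genotypes by -0.39 and -0.42. Set against Tlr9 they differed by -0.32 and -0.35, where the pair of Tlr8 and Tlr9 overlapped. The exact two-sided permutation test gave p = 0.1 in 16 of these 17 pairs (adjusted p = 0.106), the smallest p that 3 arrays against 3 allow, and 0.2 in that of Tlr8 and Tlr9. The pairs were chosen after values were seen.

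Interferon output genes had the same order over the knockout arrays as Tlr3. On a list of genes induced through TRIF and interferon, 6 of 7 measured members fell and 0 rose, where 2.05% of all genes fell and 2.85% rose. The list's median was -2.13. Ifnb1, which codes for interferon beta, read 5.43, 5.35 and 5.62 in knockout and 6.72, 7.35 and 6.62 in wild type, and fell by 1.43 (SE 0.17). Its knockout values lay below the median of all values on the arrays, where no background level was set. The antiviral GTPase Mx1 (-2.13), the chemokine Cxcl10 (-3.18), the antiviral RNA-binding genes Ifit3 (-2.78) and Ifit1 (-2.23), and Rsad2, the gene of viperin (-1.72), fell as well. Limma adjusted p ran from 0.0136 to 0.0377 over the 6. Cxcl10, Ifit3, Ifit1 and Rsad2 lost their calls when knockout replicate 1 or any wild-type array was left out (limma adjusted p of 0.0522 to 0.133) and with trend and robust settings (0.133 to 0.169). Mx1 lost its call in the absence of knockout replicate 1 (0.0745) or wild-type replicate 2 (0.0717) and with trend and robust settings (0.0747), and Ifnb1 in the absence of knockout replicate 1 (0.0631). Leaving out knockout replicate 2 moved Cxcl10 to -2.39 and Ifit3 to -2.09, and leaving out knockout replicate 3 moved them to -3.85 and -3.37. Ccl5, a chemokine named here after its value was seen, lay at 0.05 (SE 0.09, limma adjusted p = 0.807). Tlr3 deviated from its mean by -0.89, -1.61 and -0.19 in knockout replicates 1, 2 and 3 and by 0.68, 1.35 and 0.66 in the wild-type replicates. The list's mean deviation was -0.84, -1.82 and -0.22 in knockout and 0.79, 1.30 and 0.79 in wild type. Knockout replicate 2 was lowest, knockout replicate 3 the nearest to wild type and wild-type replicate 2 highest in both. Knockout replicate 2 was also the furthest from wild type of the knockout arrays, and knockout replicate 3 the nearest, in the mean deviations of the neutrophil (-0.19, -0.56 and 0.02), macrophage (-0.11, -0.21 and -0.05) and dendritic cell (0.09, 0.45 and 0.02) marker lists.

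The genes whose values ran most like Tlr3 over the 6 arrays, among 612 with a mean above 5.63 and an SD of at least 0.3, were Ddx60 (Pearson's r 0.9995), Ifi35 (0.9994), Irgm2 (0.9992), Stard3 (0.9989) and Ifi47 (0.9989). These r include the gap between genotypes, and the points share arrays and their normalization. Within genotypes, the r of deviations from the genotype means was 0.995 to 0.999 for the 5. This r comes from the same arrays that were used to choose the 5 genes, so it is no separate support. Their differences, which the choice by likeness to Tlr3 fixes in direction and which are given without a test, were -1.50 for Ddx60, -1.46 for Ifi47, -1.27 for Irgm2, -0.73 for Ifi35 and -0.59 for Stard3, a sterol transfer gene. For Tlr8 the 5 nearest genes were Tent5c (0.9973), Rnf135 (0.9856), Gpr15 (0.9813), Zcchc2 (0.9812) and Plcxd2 (0.9791), and none of them stood among the 5 for Tlr3. Within genotypes their r was lower, at 0.984, 0.932, 0.981, 0.876 and 0.865 in that order. It too comes from the arrays used to choose the genes.

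**Figure D3:**
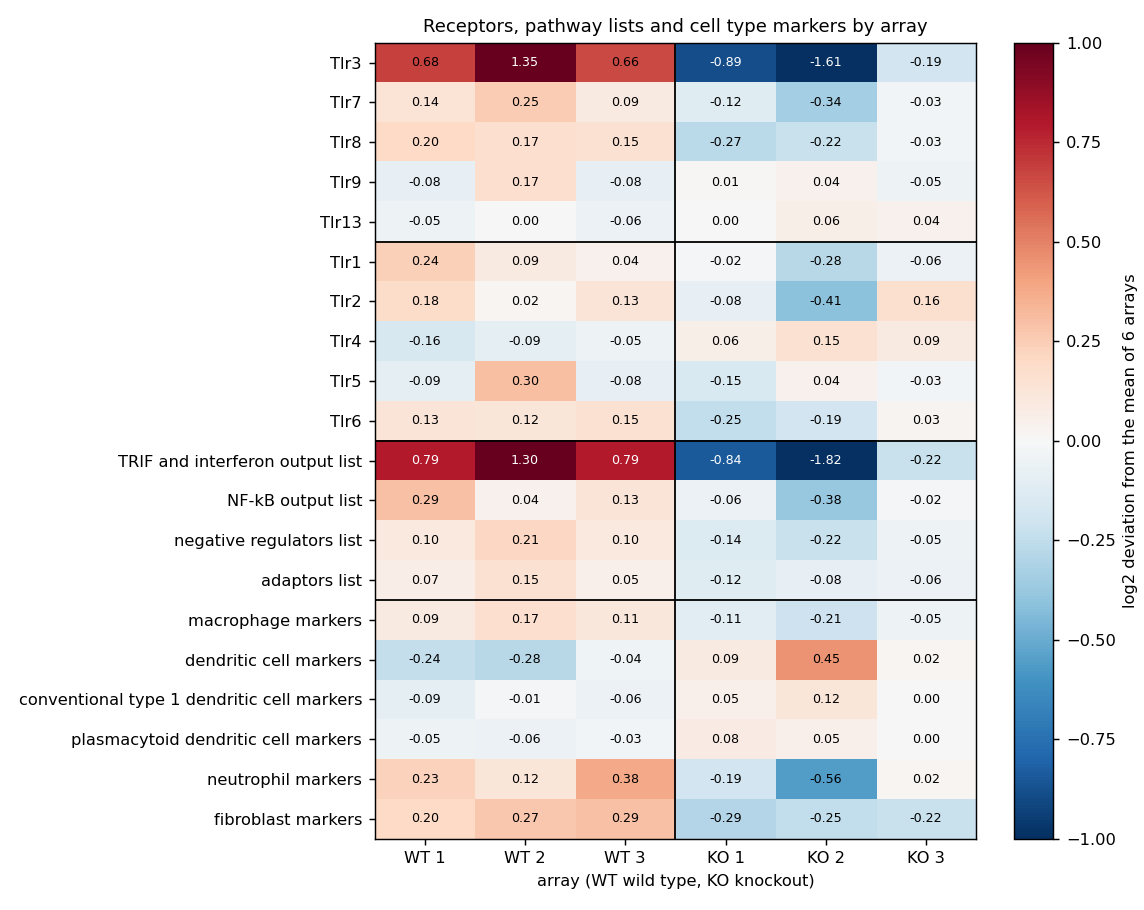
Deviation of each receptor, and of the mean over each pathway or marker list, from its own mean over the 6 arrays (columns; log2, colours end at ±1 while numbers give the full value). Tlr3 and the TRIF and interferon output list share their order over the arrays, with knockout replicate 2 lowest (-1.61 and -1.82) and wild-type replicate 2 highest (1.35 and 1.30).

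Markers of other cell types moved on these arrays too, and their part in the receptors' differences was not tested. Over all genes 2.05% were called lower and 2.85% higher, and unadjusted p-values under 0.05 gave 8.15% lower and 15.2% higher. Of 11 neutrophil markers limma called 0, while unadjusted p-values under 0.05 gave 8 lower and 1 higher. Their mean level was 8.62 to 9.20 in knockout and 9.31 to 9.57 in wild type. Of 7 fibroblast markers Col1a2, Dcn and Col3a1 fell, and the list's mean level was 5.07 to 5.14 against 5.56 to 5.65. Of 8 dendritic cell markers 0 passed limma's threshold and 4 were higher at an unadjusted p under 0.05, with a mean level of 9.72 to 10.15 against 9.42 to 9.66. Type 1 conventional dendritic cells, a type known for strong Tlr3 expression, had 7 measured markers. Batf3 rose by 0.53 and 0 fell, while limma's unadjusted p under 0.05 gave 0 lower and 2 higher. The list's mean level was 7.64 to 7.76 in knockout and 7.55 to 7.63 in wild type. Its median difference was -0.01, and 4 of the 7 markers had a lower mean in knockout. Xcr1, the defining chemokine receptor of these cells, was dim at 3.97 and 4.02. Of 7 markers of plasmacytoid dendritic cells, known for Tlr7 and Tlr9, Spib and Pacsin1 rose and Tcf4 fell. The mean level of this list was 6.88 to 6.97 against 6.83 to 6.85, but its median difference was -0.04. Of the 7 markers 5 had a lower mean in knockout, and Siglech read 6.02 and 6.06. Of 7 macrophage markers Fcgr1 (-1.13) and Mertk (-0.46) fell and 0 rose. B cell, T and NK cell, and tumour epithelium lists had 0 of 5, 0 of 4 and 0 of 6 past limma's threshold, with 1, 0 and 1 lower at an unadjusted p under 0.05.

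The rest of the receptor pathway was described with 69 measured genes in 9 roles, of which 14 fell and 0 rose (20.3% called, against 4.9% of all genes). Without the TRIF and interferon output, 8 of 62 fell and 0 rose (12.9%). Tlr12, a further mouse receptor outside the 10, lay at -0.07 (SE 0.07, limma adjusted p = 0.607). With single knockout arrays left out, the 14 calls became 0 (minus replicate 1), 9 (minus replicate 2) and 17 (minus replicate 3). With single wild-type arrays left out, they became 5 (minus replicate 1), 1 (minus replicate 2) and 6 (minus replicate 3).

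Where 2.05% of all genes fell, 1 of 6 co-receptors and ligand carriers did so, Cd180. It codes for RP105, a relative of TLR4 that restrains it in macrophages. Cd180 read 9.50, 9.40 and 9.45 in knockout and 9.82, 10.29 and 9.82 in wild type, a difference of -0.53 (SE 0.12, limma adjusted p = 0.0485), and lost its call whichever array was left out (0.0573 to 0.144). Its binding partner Ly86 read 11.60, 11.62 and 11.62 against 11.83, 12.21 and 11.85, a difference of -0.35 (SE 0.10, limma adjusted p = 0.0969). Both were highest in wild-type replicate 2, and the genotypes overlapped in neither. The partners of TLR4 itself, named for that role outside the naming rule, were Ly96 at -0.17 (SE 0.09, limma adjusted p = 0.316) and Cd14 at -0.05 (SE 0.09, limma adjusted p = 0.83).

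The 9 genes of receptor folding, transport and processing had 0 calls by limma, where 2.05% of all genes were called lower. Against 8.15% of all genes, 2 were lower at an unadjusted p under 0.05. These were Ap3b1, a subunit of a transport adaptor, at -0.20 (SE 0.07), and the endosomal protease gene Lgmn at -0.15 (SE 0.07). Unc93b1, also named for its role, read 10.15 ± 0.08 in knockout and 10.21 ± 0.05 in wild type (n = 3 each), with a difference of -0.06 (SE 0.07, limma adjusted p = 0.703).

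Of 5 adaptors 2 fell, where 2.05% of all genes did so, and the adaptor of TLR3 was not one of the 2. Myd88 read 10.69, 10.41 and 10.82 in knockout and 11.07, 11.31 and 11.07 in wild type, a difference of -0.51 (SE 0.11, limma adjusted p = 0.0444). This call too was lost when any array other than knockout replicate 3 was left out (0.0734 to 0.141). Pik3ap1, which links receptors to PI3 kinase, read 9.94, 9.89 and 10.02 against 10.29, 10.37 and 10.25 and fell by 0.35 (SE 0.07, limma adjusted p = 0.0317). Its call was likewise lost when any array other than knockout replicate 3 was left out (0.0587 to 0.107). Neither gene overlapped between genotypes. Ticam1, outside the naming rule, overlapped between genotypes at -0.10 (SE 0.09, limma adjusted p = 0.594).

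Of 11 kinase and ubiquitin ligase genes 0 passed limma's threshold, where 2.05% of all genes were called lower. Lower at an unadjusted p under 0.05 were 3 of the 11, against 8.15% of all genes. The kinases that act on interferon regulatory factors had the smallest p, with Ikbke at -0.34 (SE 0.10) and Tbk1 at -0.26 (SE 0.09), limma adjusted p of 0.104 and 0.13. Of 9 transcription factors Irf7, the interferon-inducible driver of interferon genes, fell by 1.62 (SE 0.28, limma adjusted p = 0.0227). It read 8.57, 7.76 and 9.05 in knockout and 10.004, 10.38 and 9.87 in wild type, extreme on the same arrays as Tlr3, and its call was lost when knockout replicate 1 (0.083) was left out, when the first (0.0564) or the second (0.0937) of the wild-type arrays was, and with trend and robust settings (0.097). Jun, a part of AP-1, lay at -0.18 (SE 0.07, limma adjusted p = 0.17).

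Of 11 genes listed as negative regulators 3 fell, where 2.05% of all genes did so. These 3 had the smallest p in the pathway outside the interferon output. The genes were listed by name. Whether each of them, Peli1 included, restrains or promotes receptor signalling in these cells was not tested. Peli1, a ubiquitin ligase, fell by 0.71 (SE 0.10), the cytokine signalling inhibitor Socs1 by 0.69 (SE 0.10) and Trim30a, which targets TAK1-binding proteins, by 0.85 (SE 0.13), with limma adjusted p of 0.0177 to 0.0191. All 3 lost their calls when knockout replicate 1 or wild-type replicate 2 was left out (0.0562 to 0.0769), and Peli1 also without knockout replicate 2 (0.0501). Tnfaip3, named after its value was seen, codes for the ubiquitin-editing protein A20 and lay at -0.37 (SE 0.09) just outside the threshold (limma adjusted p = 0.0513). Of 10 NF-kB output genes 1 fell: Nfkbiz, which codes for a nuclear NF-kB cofactor, by 0.53 (SE 0.12, limma adjusted p = 0.0439), a call lost when any array other than knockout replicate 3 was left out (0.0697 to 0.141). The list's median was -0.38. By unadjusted p under 0.05 there were 6 lower and 1 higher, where 8.15% of all genes were lower and 15.2% higher. Il12b, a subunit of interleukin-12, read 8.01, 8.27 and 7.61 in knockout and 7.27, 7.28 and 7.50 in wild type, a difference of 0.62 (SE 0.15, limma adjusted p = 0.0555). It was called higher in 5 of 8 other settings, with adjusted p down to 0.024, and without knockout replicate 3 (0.0125), so that the count of 0 pathway genes that rose holds for the reported setting. The cytokines Il6 and Tnf, named after their values were seen, lay at -0.78 (SE 0.23, limma adjusted p = 0.103) and -0.46 (SE 0.14, limma adjusted p = 0.105).

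**Figure D4:**
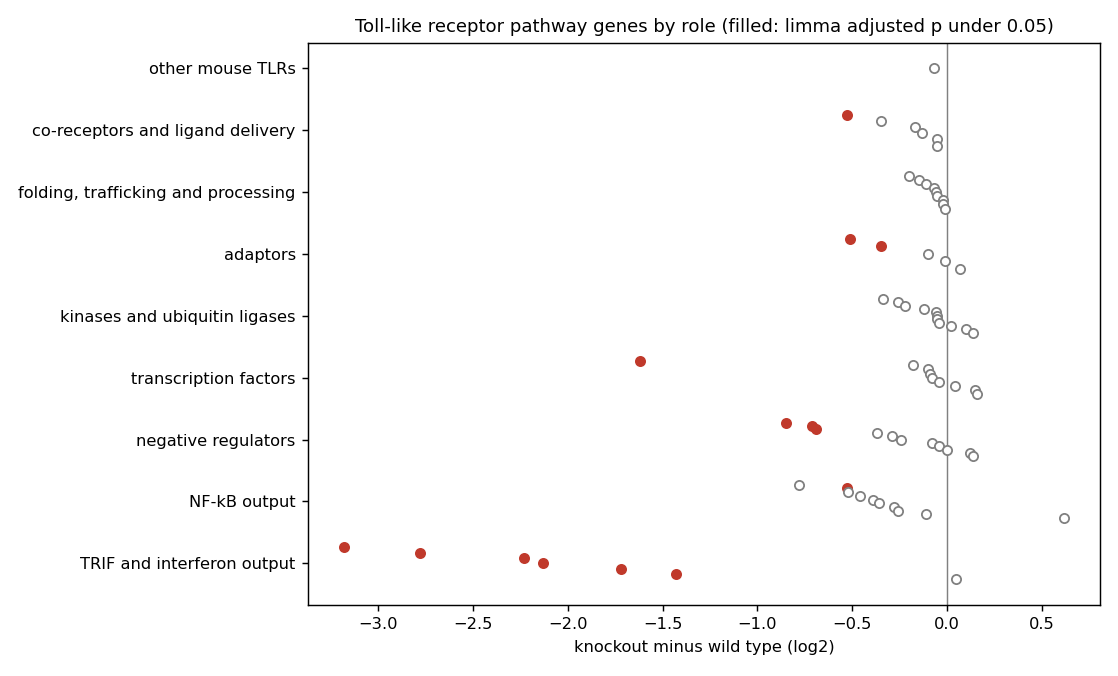
Difference in log2 intensity, knockout less wild type (horizontal axis), for the 69 pathway genes, 1 point per gene, in rows by role. The 14 filled points passed a limma adjusted p of 0.05 and all lie left of 0, from Pik3ap1 (-0.35) to Cxcl10 (-3.18).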

How the data were processed

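The values deposited by the authors are log2 intensities, a scale read from their range. Labelled cRNA was made with an Affymetrix 3' IVT kit, per the labels' protocols. The submitters' processing notes list GCRMA 2.30.0, RMA, affy 1.36.1 and limma 3.14.4, and do not say which made the values. RMA and GCRMA both bring the arrays to one distribution, with array medians of 5.60 to 5.64 here, and GCRMA pulls dim probe sets down further.

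The 64 control probe sets were left out. Symbols came from the platform annotation, updated through gene identifiers in RefSeq, and a probe set of several genes or none was tested without a name. The probe set with the highest mean stood for its gene. Genes of the lists without such a probe set were not analysed here. Genotypes were compared with limma 3.58.1 (R 4.3.3; lmFit, eBayes and a model of genotype alone), with Benjamini-Hochberg adjustment over 45037 probe sets. Every adjusted p, SE and confidence interval of a gene is limma's, moderated with 5.04 prior degrees of freedom. The number of arrays limits the precision of all values. The script was tested on simulated data. Motifs were searched as letters in RefSeq promoter windows. Python 3.11.15 and matplotlib 3.10.9 drew the figures.

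The receptors, lists and naming rule were chosen with earlier results of these data known. The rule named all 10 receptors with every probe set, Fabp5 and, per pathway role, the genes past the threshold, at most 6, filled up to 2 by smallest p. It also named the 5 genes most like each receptor that passed. The same replicate numbers occur in both genotypes.

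Alternatives were quantile normalization, median centring, above-median probe sets only, a floor at 4.07 (the 20th percentile), array weights, the replicate block, trend and robust settings in eBayes, averaging all probe sets of a gene, dropping _s_at and _x_at probe sets, dropping each array and an adjusted p under 0.1.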

Additional observations from a re-analysis of the deposited data

How the results depend on the processing

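The 1691 called probe sets became 2692 with above-median probe sets only, 3126 with trend and robust settings, 3775 at an adjusted p under 0.1, 71 with the floor, 92 with the replicate block and 40 to 1360 with an array left out. Of the receptors 2 were called, 1 (Tlr3) after median centring, 0 with the floor, 0 with the replicate block and 0 to 3 with an array left out; at an unadjusted p under 0.05 limma gave 5 with the floor, 6 with the block and 4 to 7 with an array left out. With trend and robust settings the 2 were Tlr7 and Tlr8. Of 69 pathway genes 14 were called, 0 with the floor, 1 with the block and 0 to 17 with an array left out (32, 31 and 27 to 33 at an unadjusted p under 0.05). Of all 45037 probe sets, that unadjusted cut gave 8475 with the floor, 8365 with the block and 7382 to 8317 with an array left out. The cause of the lost calls was not tested. Fits with an array left out also had fewer arrays, and their counts differed with the array. They gave 40 called probe sets without knockout replicate 1 and 1360 without knockout replicate 3.

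Same-numbered arrays did not deviate together (correlations of -0.06, -0.04 and -0.13 over probe sets), so the replicate numbers were not taken to pair samples. The median of the endosomal class stayed between -0.39 and -0.24. That of the surface class ran from -0.27 to -0.14 with an array left out, the last without knockout replicate 2. Tlr3 (-2.15 to -1.44), Tlr8 (-0.42 to -0.30), Tlr7 (-0.39 to -0.24), Tlr6 (-0.36 to -0.22), Tlr1 (-0.30 to -0.16), Tlr2 (-0.35 to -0.07), Tlr4 (0.10 to 0.22) and Tlr13 (0.05 to 0.09) kept their direction under every alternative run. Genes near 0 changed sign. Tlr9 moved to 0.00 (quantile normalization), 0.01 (median centring) and 0.03 (array weights), and Tlr12 to 0.01 (mean of its probe sets). With an array left out Tlr9 ran from -0.04 to 0.08, Tlr5 from -0.16 to 0.04, Cd14 from -0.14 to 0.04 and Ccl5 from -0.03 to 0.11. No background level was used here. Values under the median of 5.63 are dim, and the size of their differences is uncertain. Among them are all values of Tlr12 and Col3a1, the knockout values of Ifnb1 and Col1a2, and some of Tlr5 in both genotypes.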
